A study of Mus musculus with 4 samples.

Results

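Chromatin accessibility was described for 7 genes of cholesterol synthesis and its control, Hmgcs1, Idi1, Fdft1, Sqle, Srebf2, Insig1 and Aacs, out of 21728 protein-coding genes. The genes were picked by name, with earlier values of the same libraries known, so their levels and ratios are a description without a test. For each gene, the counts of all called peaks that touch the gene body or the 2000 bp before it, called the gene window here, were summed over the nuclei of a library and scaled to counts per 1000000 counts in peaks (CPM). The covered length of those peaks and the peaks around the 5′ end alone were recorded beside each level. All 7 genes passed the filter on low values, a mean of at least 5 CPM over the libraries, as did 15478 genes in all. None of the 7 genes encodes a receptor for low-density lipoprotein (LDL) or another protein of its uptake; that side of cholesterol supply was followed in a separate list of 10 genes.

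The scATAC-Seq assay reads out open chromatin nucleus by nucleus, from the places where a transposase could cut the DNA. The study followed mouse liver after partial hepatectomy (PHx), a surgery that takes out part of the liver and after which the remaining hepatocytes divide. The 4 libraries were made from hepatocytes of male C57BL/6J mice on a normal diet, freed by collagenase perfusion before surgery (0 h) and at 48, 72 and 96 h after PHx, with an age of 10 to 12 weeks in the sample records. There was 1 library per time point, so time and library cannot be told apart in any value given here, and intervals cover counting error only.

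Hepatocytes make cholesterol from acetyl coenzyme A through mevalonate and squalene, and take up more of it from the blood. When membrane sterol is low, the transcription factor SREBP2 is released by cleavage and switches on most enzymes of the pathway, while INSIG proteins hold it back when sterol is plentiful. Ketone bodies are another route by which carbon reaches sterols, through an activating enzyme in the cytosol.

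The libraries held 3224 to 4256 nuclei with at least 1000 counts, and the total counts of those nuclei were 136582768, 62000846, 24724883 and 14935507 at 0, 48, 72 and 96 h. Called peaks covered 153.6, 179.0, 141.2 and 60.9 Mb in the same order, so fewer bases could contribute counts at 96 h. The 10 hepatocyte markers held 3947 to 5790 CPM in their windows, against 220 to 447 for 9 endothelial, 70.7 to 143 for 6 Kupffer and other myeloid, 76.1 to 152 for 8 stellate and mesenchymal and 46.6 to 69.4 for 5 biliary markers. All 4 of these other lists were highest at 72 h, where the hepatocyte list was lowest, and their part in the values that follow was not tested. Cd5l, a Kupffer cell marker, was at 0 in every library, and Cdh5, Clec4f, Adgre1, Hgf and Krt7 were at 0 at both 0 and 96 h. Of all deposited barcodes, 1166 occurred in more than 1 library, and 170 passed the count minimum in more than 1.

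Upstream sequence is shown for 4 of the genes because their 5′ ends behaved differently in the accessibility data: Hmgcs1 and Insig1 lay in single broad domains, while Srebf2 and Aacs had separate promoter peaks with fewer counts at 96 h than at 0 h. The letters come from the RefSeq promoter table for GRCm38.p6, on the plus strand and 5′ to 3′, and run up to the base before the first annotated start. Capitals mark matches, on either strand, to a sterol regulatory element (TCACNCCAC), a CCAAT box (CCAAT), a GC box (GGGCGG) or an E-box (CACGTG). The Hmgcs1 stretch is chr13:119690101-119690350, that of Insig1 chr5:28071162-28071362, that of Srebf2 chr15:82147019-82147180 and that of Aacs chr5:125475623-125475813.
Hmgcs1: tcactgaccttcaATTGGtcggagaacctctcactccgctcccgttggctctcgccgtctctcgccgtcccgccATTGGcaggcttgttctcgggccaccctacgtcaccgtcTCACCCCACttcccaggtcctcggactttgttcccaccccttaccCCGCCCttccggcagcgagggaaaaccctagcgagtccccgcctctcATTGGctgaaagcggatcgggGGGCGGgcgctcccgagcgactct
Insig1: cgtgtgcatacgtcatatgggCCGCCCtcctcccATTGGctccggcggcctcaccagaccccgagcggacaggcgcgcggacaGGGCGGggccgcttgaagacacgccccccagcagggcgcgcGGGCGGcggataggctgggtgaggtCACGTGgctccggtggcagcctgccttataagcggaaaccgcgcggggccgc
Srebf2: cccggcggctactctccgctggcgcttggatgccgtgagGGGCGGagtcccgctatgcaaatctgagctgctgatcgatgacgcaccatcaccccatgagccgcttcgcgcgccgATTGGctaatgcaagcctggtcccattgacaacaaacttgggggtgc
Aacs: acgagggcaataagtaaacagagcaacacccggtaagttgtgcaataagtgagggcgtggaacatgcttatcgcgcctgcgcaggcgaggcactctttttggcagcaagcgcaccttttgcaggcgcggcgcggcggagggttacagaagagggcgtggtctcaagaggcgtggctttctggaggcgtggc

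Over the full promoter windows of the table, from 250 bases before to 50 after the start, the sterol regulatory element matched 1 of the 5 genes that have an entry, Hmgcs1, and 1.24% of all 32851 promoters. In Hmgcs1 that match began 137 bases before the RefSeq start and stood among 4 CCAAT boxes and 3 GC boxes. CCAAT boxes were found in 4 of 5 genes and in 37.4% of all promoters, and GC boxes in 4 of 5 and in 35.7%. The E-box matched Insig1 alone among the 5, and 7.15% of all promoters. Aacs held none of the 4 motifs in its window. Idi1 held 2 CCAAT boxes and 1 GC box. Sqle and Fdft1 have no entry in the table. A match to these letters is a description and not a binding site.

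Hmgcs1 (ENSMUSG00000093930.2, chr13:119690379-119708260, plus strand) encodes the cytosolic HMG-CoA synthase, which makes the precursor of mevalonate. It lay in a single broad peak in each library, from upstream of its 5′ end to beyond its 3′ end. The window held 219, 364, 590 and 491 CPM at 0, 48, 72 and 96 h, and the exact 95% Poisson intervals of the 4 libraries did not overlap. The level was lowest at 0 h, highest at 72 h and in between at 48 and 96 h, whereas per kb of covered length, and with 1 count per peak and nucleus, the 96 h library was above that of 72 h.

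The log2 ratios of Hmgcs1 to the 0 h library were 0.74 (95% interval 0.70 to 0.77), 1.43 (1.39 to 1.47) and 1.17 (1.11 to 1.22) in the 48, 72 and 96 h libraries. The log2 ratio of the 96 h to the 72 h library was -0.27 (-0.32 to -0.21). The peak covered 29592, 32431, 35806 and 25427 bp, so its length changed by at most 1.21-fold from 0 h while its counts changed by up to 2.7-fold. Per kb of covered length Hmgcs1 held 7.39 CPM per kb at 0 h and 11.2, 16.5 and 19.3 CPM per kb at the later times. The increase in CPM per kb at 96 h was shared by most genes: 92.3% of all genes tested were at least 1.5-fold higher per kb there, against 1.18% at 48 h and 10.9% at 72 h. The domain also covers the antisense transcript Gm48342 and the 3′ part of Nim1k, and counts of these genes cannot be separated from those of Hmgcs1.

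**Figure D1:**
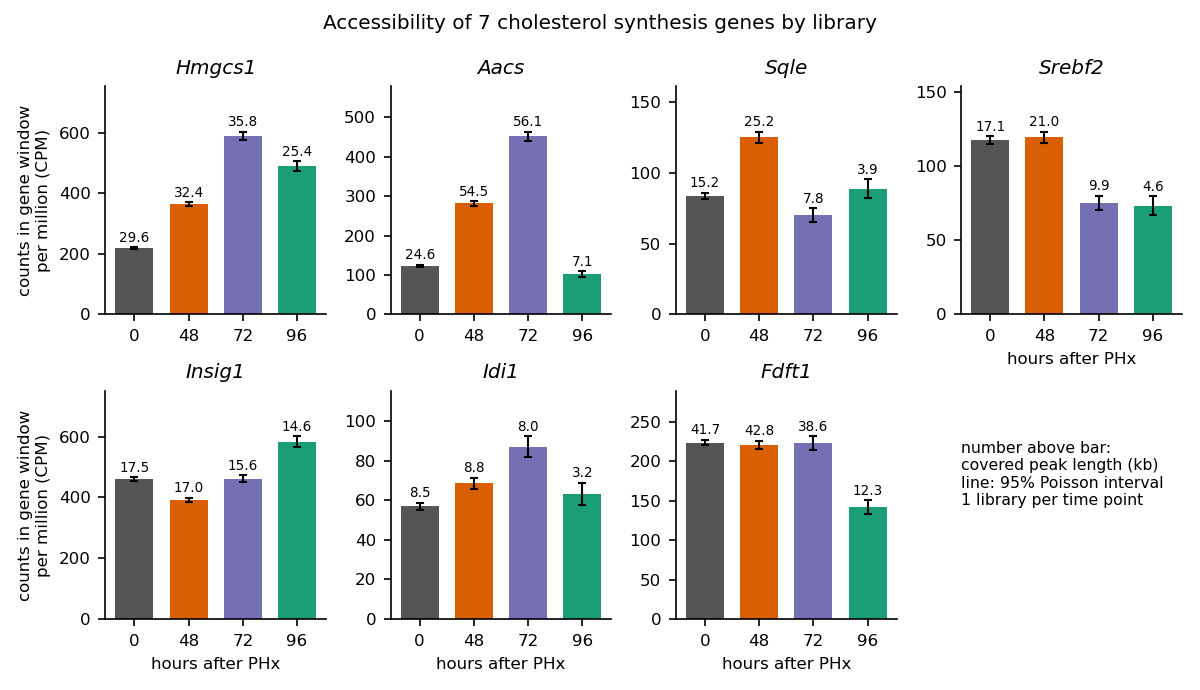
CPM in the gene window of each of the 7 genes, by hours after PHx, with 95% Poisson intervals and the covered peak length in kb above each bar (1 library per time point). Hmgcs1 has 219 CPM at 0 h and 590 CPM at 72 h, Aacs peaks at 452 CPM at 72 h, and Srebf2 is lower at 72 and 96 h than at 0 and 48 h.

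Idi1 (ENSMUSG00000058258.14, chr13:8885501-8892451, plus strand) encodes isopentenyl-diphosphate isomerase, which interconverts the isoprenoid building blocks made from mevalonate. Its window held 56.9, 68.5, 86.9 and 62.9 CPM at 0, 48, 72 and 96 h. The level was highest at 72 h, with a log2 ratio of 0.61 (0.51 to 0.71), and was 0.27 (0.19 to 0.34) at 48 h and 0.14 (0.004 to 0.28) at 96 h. The 72 h ratio, 1.53-fold, was the one just inside a 1.5-fold limit among the window CPM ratios of the 7 genes. Per kb of covered length, Hmgcs1 at 48 h (1.519-fold) and Insig1 at 96 h (1.523-fold) were also just inside it. The promoter peak did not follow this course. It held 44.4, 46.6, 33.1 and 46.3 CPM, with the lowest value at 72 h, where the stretch that was open as 1 peak at 0 and 48 h was broken into separate peaks.

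The whole region over the 5′ end, chr13:8884784-8890470, held 44.4, 46.6, 51.7 and 62.9 CPM, with log2 ratios of 0.07, 0.22 and 0.50. Higher ratios were found in a region at the 3′ end of Idi1, chr13:8892336-8895407, which overlaps the last exon. Most of this region lies past the annotated end of Idi1 at 8892451. Its counts are part of the 72 h window value of Idi1, which passed 1.5-fold, whereas the 5′ region had a log2 ratio of 0.22 there. The 3′ region held 12.5, 21.9, 35.2 and 29.1 CPM at 0, 48, 72 and 96 h, so every later library was above the 0 h library and the 72 h value was the highest. It had 1 peak of nearly equal length in each library (3002, 3072, 2989 and 2643 bp), which makes it the only region of the 7 genes that was 1 peak in every library with a length within 1.2-fold of that at 0 h at all 3 later times. Its log2 ratios were 0.80 at 48 h, 1.49 at 72 h and 1.21 at 96 h. Among all regions of such near-equal length, 4.13%, 29% and 90.7% were at least 1.5-fold higher at 48, 72 and 96 h, and 4.09%, 2.2% and 0.0224% were lower. These shares are over regions with a mean of at least 1 CPM in the libraries compared. At 96 h the peak began past the annotated end of Idi1 and so did not enter the window. With every peak of the regions that the window touches, an alternative chosen after the data had been seen, Idi1 had 56.9, 68.5, 86.9 and 92.0 CPM, and its log2 ratio at 96 h became 0.69.

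Fdft1 (ENSMUSG00000021273.10, chr14:63145150-63179578, minus strand) encodes squalene synthase, the first enzyme committed to sterols. It held 224, 221, 223 and 142 CPM at 0, 48, 72 and 96 h, nearly level through 72 h and lower at 96 h. The log2 ratios were -0.02 (-0.06 to 0.02), -0.01 (-0.06 to 0.05) and -0.66 (-0.75 to -0.57). The extent of its peaks changed more than its counts: a single domain of 40586 bp at 0 h and 41573 bp at 48 h was called as 6 peaks at 72 h and as 8 at 96 h, besides 1 small upstream peak in each library. Covered length in the window was 41664, 42761, 38554 and 12315 bp. At 96 h the direction turned per kb (1.101) and with 1 count per peak and nucleus (0.90), and by the latter measure the 72 h ratio was 1.22. The domain reaches into the neighbouring gene Ctsb, and its counts cannot be assigned to Fdft1 alone.

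The peaks within 1000 bp of the annotated 5′ end of Fdft1 held 224 and 221 CPM at 0 and 48 h and 21.4 CPM at 72 h, and no peak was called there at 96 h. At 0 and 48 h these peaks are the domain itself, which spans 41664 and 42761 bp with the upstream peak, against 2129 bp at 72 h, so peaks of very unlike length are set side by side there. Per kb of peak the same place held 5.37, 5.16 and 10.1 CPM per kb at 0, 48 and 72 h. At 96 h a peak 1088 to 2103 bp from the 5′ end, just outside the limit, held 17.4 CPM. The matching peak at 72 h, 954 to 2173 bp from the 5′ end, just entered and held 15.7 CPM. Around any annotated transcript start of Fdft1 the values were 224, 221, 75.6 and 45.8 CPM. The small peak upstream of the gene, chr14:63180346-63181533, was set apart from the domain in every library and held 7.09, 6.69, 5.74 and 3.41 CPM.

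Sqle (ENSMUSG00000022351.14, chr15:59315077-59331192, plus strand) encodes squalene epoxidase, a control point in the sterol branch. Its window held 84.0, 125, 70.1 and 88.6 CPM at 0, 48, 72 and 96 h, highest at 48 h and lowest at 72 h. The log2 ratios were 0.58 (0.52 to 0.64), -0.26 (-0.37 to -0.16) and 0.08 (-0.04 to 0.19). At 48 h the fold was 1.49, just outside the 1.5-fold limit. The covered length was 15225, 25156, 7787 and 3858 bp, so it was also longest at 48 h, and per kb the log2 ratio was -0.15 at 48 h.

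The promoter peak of Sqle differed less from 0 h than the window at 48 h and more at 96 h. It held 61.9, 55.4, 53.8 and 81.8 CPM, with log2 ratios of -0.16, -0.20 and 0.40. Between 0 and 48 h its length was nearly the same, 6614 and 6570 bp, and the first of these ratios compares like lengths. The high window value at 48 h lay instead in 1 peak of 18272 bp over the later part of the gene and beyond its 3′ end, with 69.3 CPM, where Washc5 also ends. Over that whole region, chr15:59324615-59342886, the values were 28.8, 69.3, 68.6 and 16.1 CPM, high at 48 and 72 h and low at 0 and 96 h. At 72 h, peaks past the gene held 58.5 CPM of this region outside the window. With whole regions Sqle had 91.0, 125, 129 and 105 CPM, so its 72 h ratio turned from -0.26 to 0.50 and its 72 h level from the lowest to the highest.

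**Figure D2:**
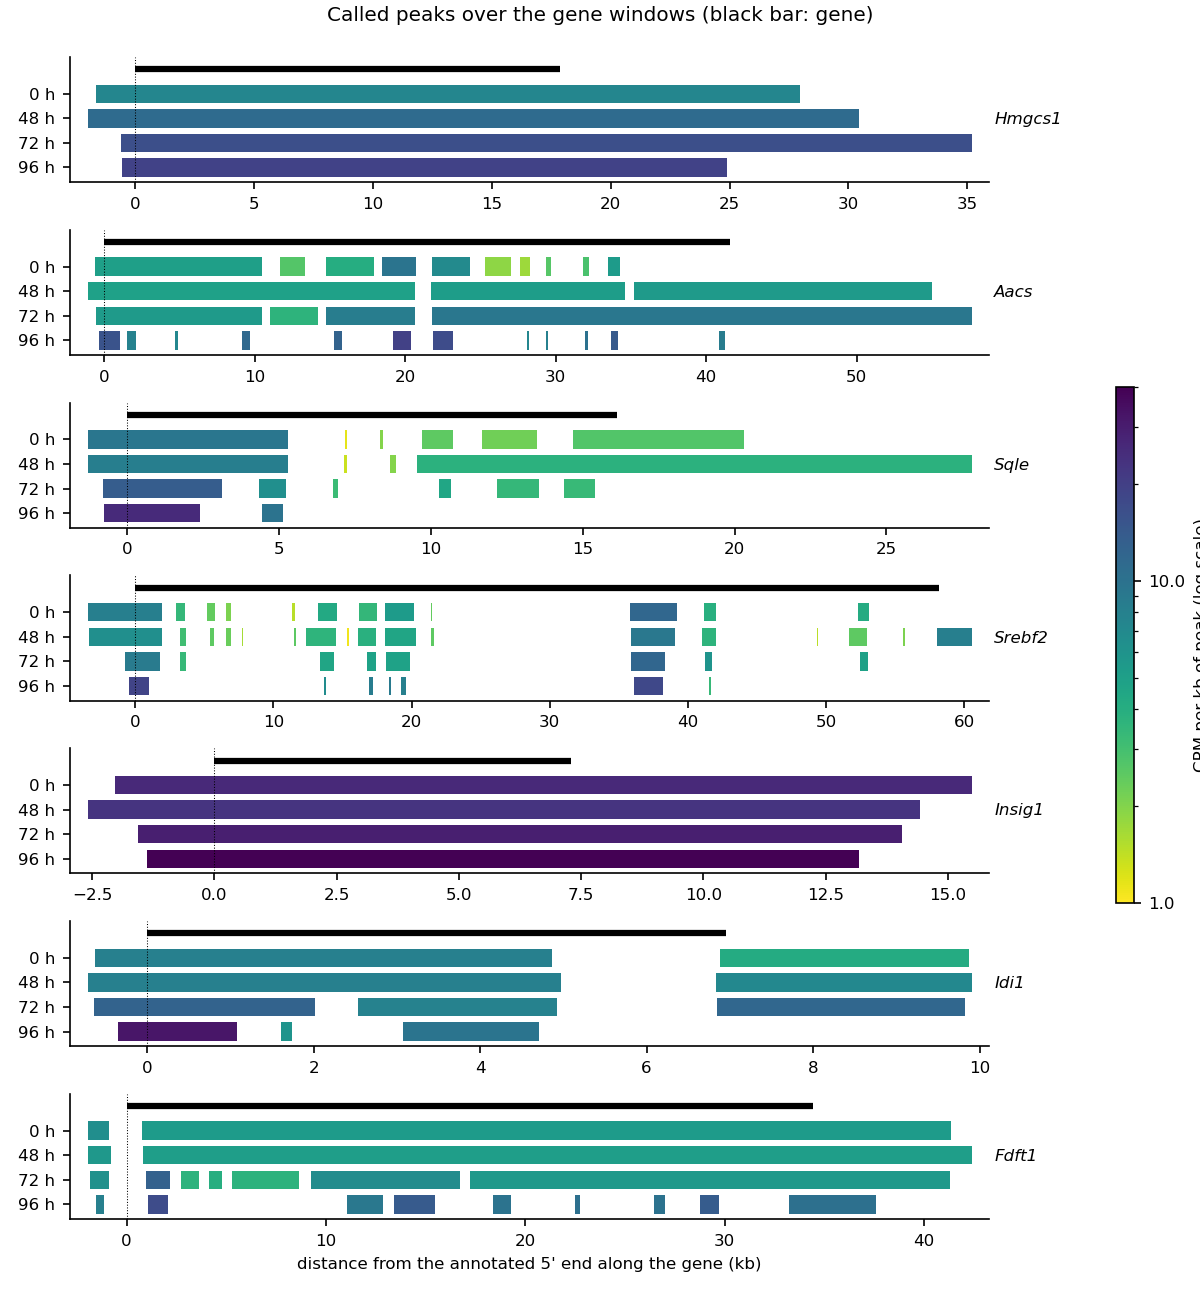
Called peaks in the gene windows of the 7 genes by library, against the distance from the annotated 5′ end in kb, with the colour giving CPM per kb of peak on a log scale and the black bar the gene. Hmgcs1 and Insig1 keep 1 broad peak in all 4 libraries, Aacs and Sqle gain long peaks past their later parts at 48 h, and Fdft1 breaks into 8 peaks over its domain at 96 h.

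Srebf2 (ENSMUSG00000022463.8, chr15:82147181-82205379, plus strand) encodes SREBP2, the transcription factor that drives the pathway. Its window held 118, 120, 75.3 and 73.4 CPM at 0, 48, 72 and 96 h, with the libraries of 0 and 48 h above those of 72 and 96 h. The log2 ratios were 0.02 (-0.03 to 0.08), -0.65 (-0.74 to -0.55) and -0.68 (-0.81 to -0.56). Covered length was 17078, 20996, 9871 and 4593 bp, and per kb the order turned: Srebf2 held 6.89, 5.69, 7.63 and 15.98 CPM per kb.

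The promoter peak of Srebf2 held 44.6, 34.0, 22.2 and 27.0 CPM, lower than at 0 h in all 3 later libraries. Between 0 and 48 h its length was nearly equal (5417 and 5272 bp), and the log2 ratio was -0.39 (-0.49 to -0.29). An exonic region near the middle of the gene, chr15:82182998-82186358, held 39.9, 29.8, 30.1 and 38.3 CPM, highest at 0 and 96 h. A region at the 3′ end, chr15:82205178-82207733, which also overlaps Shisa8, held 21.6, 21.1, 25.9 and 35.5 CPM and was the highest at 96 h. At 0, 72 and 96 h the peak of this region began past the gene and did not enter the window, and neither did some upstream peaks at 72 and 96 h. With whole regions Srebf2 had 139, 120, 107 and 115 CPM and log2 ratios of -0.22, -0.38 and -0.27. Mir33, the microRNA in an intron of Srebf2 known to act on cholesterol efflux genes, had no peak over it in any library.

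Insig1 (ENSMUSG00000045294.11, chr5:28071363-28078662, plus strand) encodes an endoplasmic reticulum protein that retains SREBP2 when sterol is plentiful. Its window held 461, 393, 461 and 583 CPM at 0, 48, 72 and 96 h. The 48 h library was the lowest (with 1 count per peak and nucleus it was above 0 h, at a log2 ratio of 0.54), those of 0 and 72 h had overlapping intervals, and 96 h was the highest. The log2 ratios were -0.23 (-0.26 to -0.20), 0.00 (-0.04 to 0.04) and 0.34 (0.29 to 0.39). Its single peak covered 17517, 17027, 15614 and 14552 bp, the narrowest span of lengths among the 7 genes. Per kb it held 26.3, 23.1, 29.6 and 40.1 CPM per kb, more than any other of the 7 genes in each library. The start of the long noncoding RNA gene Gm26608 lies in the same peak.

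Aacs (ENSMUSG00000029482.4, chr5:125475814-125517410, plus strand) encodes acetoacetyl-CoA synthetase, which activates the ketone body acetoacetate in the cytosol for lipid synthesis. Its ratios to 0 h had the widest range of the 7 genes, with levels of 123, 282, 452 and 101 CPM at 0, 48, 72 and 96 h. It was high at 48 and 72 h and lowest at 96 h, and no 2 intervals overlapped. The log2 ratios were 1.19 (1.15 to 1.24), 1.88 (1.83 to 1.93) and -0.28 (-0.39 to -0.17). The covered length followed the same course, with 24624, 54458, 56073 and 7096 bp. Per kb, Aacs held 4.998, 5.17, 8.06 and 14.3 CPM per kb, so at 48 h its counts were higher by about as much as its length.

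Most of the change of Aacs lay away from its 5′ end. The region chr5:125497545-125534750, from inside the gene to past its 3′ end, held 39.7, 182, 332 and 110 CPM at 0, 48, 72 and 96 h. It includes the start of the neighbouring gene Tmem132b, so its counts cannot be assigned to Aacs alone. With whole regions Aacs had 135, 289, 454 and 174 CPM, so its 96 h ratio turned from -0.28 to 0.37 and 0 h became the lowest. The region over the 5′ part of the gene held 95.1, 107, 121 and 63.7 CPM, a far smaller range. The promoter peak held 56.0, 107, 59.7 and 21.7 CPM. At 72 h its length (11043 bp) was nearly that at 0 h (11132 bp), and the log2 ratio was 0.09 (-0.02 to 0.21).

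Over all 7 genes, the windows of 2, 3 and 1 genes were at least 1.5-fold above 0 h at 48, 72 and 96 h, where 14.2%, 20.3% and 19.1% of all genes tested were. These were Hmgcs1 and Aacs at 48 h, both with Idi1 at 72 h, and Hmgcs1 at 96 h. At least 1.5-fold lower were 0, 1 and 2 genes, beside 7.44%, 16.5% and 17.9% of all genes. These were Srebf2 at 72 h and Srebf2 and Fdft1 at 96 h. Hmgcs1 was the 1 gene of the 7 above the limit at all 3 times, which 7.18% of all genes were. Per kb of covered length, 1, 4 and 7 genes were at least 1.5-fold higher (1.18%, 10.9% and 92.3% of all genes) and none was lower (8.32%, 1.93% and 0.0775%). The median log2 ratio of the 7 genes in CPM was 0.27, 0.00 and 0.08, and over all genes tested it was -0.04, -0.02 and 0.08.

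The summed level of the 7 genes was 1285, 1572, 1959 and 1542 CPM at 0, 48, 72 and 96 h. It was highest at 72 h, with log2 ratios of 0.29, 0.61 and 0.26. Hmgcs1, Aacs and Idi1 were each highest at 72 h and the other 4 genes were not: Sqle was lowest there, Srebf2 was close to its lowest, and Fdft1 and Insig1 were level between 0 and 72 h. With whole regions this grouping turned for Sqle, then highest at 72 h, and for Idi1, then highest at 96 h. With the barcodes found in more than 1 library left out, the summed ratios were 0.26, 0.58 and 0.24, and 1 count changed: 2 genes in place of 3 were past the limit at 72 h, as Idi1 then had a log2 ratio of 0.58, just under it. Counted over promoter peaks alone, 2, 1 and 1 genes were at least 1.5-fold higher (10.4%, 14% and 22.9% of 12855 genes tested) and 0, 2 and 3 were lower (10.4%, 20.1% and 16.1%). The higher ones were Hmgcs1 and Aacs at 48 h and Hmgcs1 at 72 and 96 h. The promoter peak of Hmgcs1 is its whole domain, so its promoter values repeat those of its window. The promoter peak of Aacs covered 21772 bp at 48 h, against 11132 bp at 0 h. The lower genes were Srebf2 and Fdft1 at 72 h, joined by Aacs at 96 h. Fdft1 counts as lower at 96 h because no called peak reached within 1000 bp of its 5′ end, though 1 lay just outside. The peaks over the 5′ ends of Idi1, Sqle and Insig1 stayed within 1.5-fold of 0 h in each later library.

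**Figure D3:**
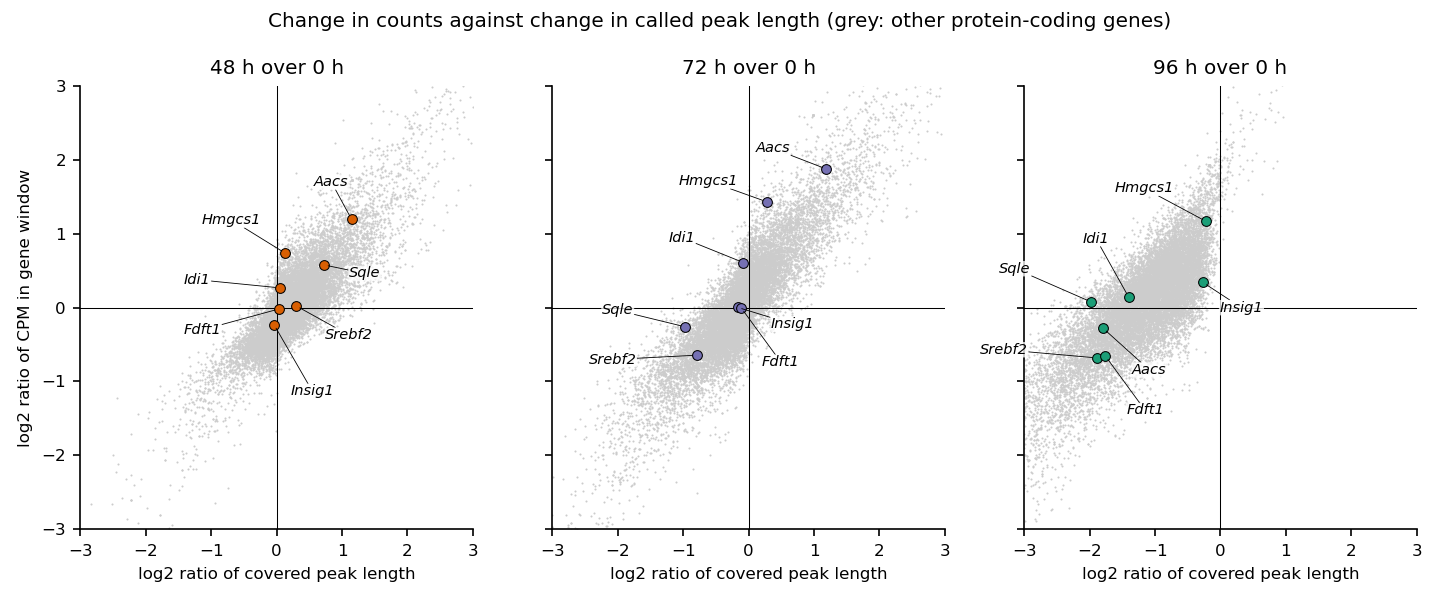
Log2 ratio of CPM in the gene window to the 0 h library against the log2 ratio of covered peak length, at 48, 72 and 96 h, with the 7 genes named and other protein-coding genes in grey (77, 172 and 455 genes lie outside the axes). Hmgcs1 has higher counts at nearly the length of 0 h at all 3 times, Aacs at 48 h lies where counts and length are both higher, and at 96 h all 7 genes have shorter peaks than at 0 h.

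Peaks were called in each library on its own, so the regions with 1 peak of near-equal length in both libraries compare like with like. The 7 genes held 11 such regions at 48 h, 3 at 72 h and 1 at 96 h. At 48 h their log2 ratios ran from -0.42 to 0.80 with a median of 0.07, and 1 region, the 3′ end of Idi1, was at least 1.5-fold higher. The median over all 48529 such regions with a mean of at least 1 CPM in the libraries compared was -0.02. That limit was not applied to the 11 regions, so their median and this one are not strictly alike. Srebf2 regions with 0.78 and 0.84 CPM, and with 0.25 and 0.35 CPM, at 0 and 48 h lay below it. Of the 11 regions, 7 lay in Srebf2. At 48 h, 4 of these were above 0 h, with log2 ratios of 0.10 to 0.51, and 3 were below. The 4 higher regions held only 0.25 to 4.77 CPM at 0 and 48 h, and the intervals of their ratios all spanned 0. Among the 3 lower regions, the intervals of the promoter (-0.49 to -0.29) and the exonic region (-0.53 to -0.32) excluded 0. That of the remaining lower region (-0.31 to 0.08) spanned 0. At 72 h the 3 regions were those of Idi1 (1.49), the 3′ end of Srebf2 (0.26) and the upstream peak of Fdft1 (-0.30), with a median over all such regions of 0.33. The Hmgcs1 peak was nearly as long at 48 h as at 0 h but is not among these regions, since the merged region around it holds further peaks.

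Single nuclei were compared at equal depth, with each nucleus thinned at random to 1000 counts. Nuclei with at least 1 count in the Hmgcs1 window made up 18.1%, 24.6%, 34.0% and 28.6% at 0, 48, 72 and 96 h, the same order as its CPM. Nuclei with a count in the Aacs window were 10.3%, 20.6%, 28.1% and 7.88%. Those for Insig1 were 33.7%, 27.9%, 29.0% and 35.0%, with overlapping 95% binomial intervals at 48 and 72 h and again at 0 and 96 h. Those for Srebf2 were 10.5% and 9.56% at 0 and 48 h and 6.04% and 6.02% at 72 and 96 h. These shares rest on the same window peaks as its CPM, so they are not a separate check. Sqle ran from 6.13% at 72 h to 10.3% at 48 h, and Fdft1 from 10.9% at 96 h to 19.2% at 0 h. Idi1 stayed between 5.15% and 6.79%. At least 1 of the 7 windows had a count in 66.8%, 70.3%, 72.9% and 66.1% of nuclei, and 2 or more in 27.2%, 32.9%, 36.6% and 27.2%. Without thinning, the share with a count in the Hmgcs1 window was 74.3%, 65.9%, 59.1% and 48.8%, which follows the depth per nucleus, with medians of 26005, 11629, 4841 and 3682 counts. Nuclei of 1 library are not replicates, and no doublets were removed.

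**Figure D4:**
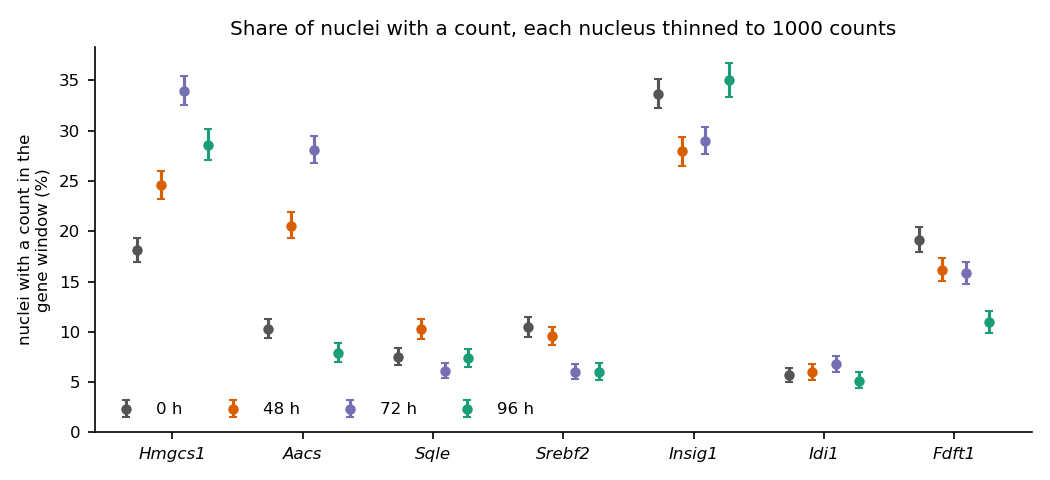
Share of nuclei, each thinned to 1000 counts, with at least 1 count in the gene window, for the 7 genes and 4 time points, with exact 95% binomial intervals. Hmgcs1 goes from 18.1% at 0 h to 34.0% at 72 h, Aacs has 28.1% at 72 h and 7.88% at 96 h, and Srebf2 is 6.04% and 6.02% at 72 and 96 h.

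The rest of cholesterol metabolism was described with 6 lists of 45 other genes, all of which passed the filter. Of the 45, 4, 8 and 3 were at least 1.5-fold higher and 7, 10 and 14 lower at 48, 72 and 96 h, against the shares of all genes given above. Their median log2 ratios were -0.10, 0.02 and -0.27. These genes ran lower than the median of all genes at 48 and 96 h. The median of the 7 genes was above that of all genes at 48 h (0.27 and -0.04) and about equal to it at 96 h (0.08 for both).

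Among the 7 other mevalonate genes, 1, 2 and 1 were higher and 0, 0 and 2 lower, with medians of 0.23, 0.38 and 0.13. Mvk, mevalonate kinase, had the largest increase at both 48 and 96 h, with 18.7, 39.6, 53.0 and 29.8 CPM over the 4 libraries. Like Hmgcs1, it was at least 1.5-fold above 0 h at all 3 times, but its promoter peak held 18.7, 15.3, 18.9 and 29.8 CPM, and its covered length was 2384, 7495, 7419 and 1387 bp. Ggps1, which makes geranylgeranyl diphosphate, had the largest decrease at 48 h (64.1 to 48.0 CPM). Fdps, farnesyl diphosphate synthase and the step before Fdft1, had the largest decrease at 96 h, with 101, 119, 121 and 24.9 CPM. Its covered length went from 16817 bp at 0 h to 1092 bp at 96 h.

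Among the 10 other sterol genes, which act after Fdft1 and Sqle, 1, 2 and 1 were higher and 0, 0 and 1 lower, with medians of 0.14, 0.18 and 0.03. Ebp, a sterol isomerase, had the largest increase at 48 h, with 26.1, 62.9, 28.7 and 18.6 CPM. Its covered length went from 4186 bp at 0 h to 12103 bp at 48 h, and its 48 h log2 ratio per kb was -0.26. The promoter peak of Ebp held 26.1 CPM at 0 h and 22.1 CPM at 48 h. Msmo1, which takes part in removing methyl groups from early sterols, had the largest at 96 h, with 165, 184, 251 and 252 CPM, the same direction at 72 and 96 h as Hmgcs1. Tm7sf2, a sterol reductase, had the largest decrease at both times, with 58.2, 41.6, 44.9 and 31.6 CPM. Per kb of covered length its log2 ratio was -0.52 at 48 h and 1.04 at 96 h.

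Among the 8 other regulators, 0, 1 and 1 were higher and 2, 2 and 2 lower, with medians of -0.28, -0.07 and -0.33. Mbtps2, the protease that makes the final cut releasing SREBP2, had the largest increase at 48 and 96 h, with 18.7, 23.7, 27.1 and 31.0 CPM. Insig2, the paralogue of Insig1, had the largest decrease at 48 h, with 354, 225, 233 and 363 CPM. In window CPM both Insig genes were lowest at 48 h and at or above their 0 h level at 96 h. The promoter peaks of Insig2 held 301, 220, 195 and 262 CPM, lowest at 72 h and below 0 h at 96 h. The covered length of Insig2 went from 47606 bp at 0 h to 28882 bp at 48 h, and its 48 h log2 ratio per kb was 0.07. Scap, the sterol sensor that escorts SREBP2, had the largest decrease at 96 h, with 194, 129, 131 and 75.7 CPM. The covered length of Scap went from 42927 bp at 0 h to 6013 bp at 96 h, and its 96 h log2 ratio per kb was 1.47. The window of Srebf2, by comparison, was level between 0 and 48 h, and its 72 and 96 h windows differed by a log2 ratio of -0.04 (-0.19 to 0.12). With whole regions the 48 h log2 ratio of Srebf2 was -0.22, and that of its promoter peak was -0.39.

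Of the 10 genes of LDL uptake and sterol traffic, 1, 1 and 0 were higher and 1, 1 and 2 lower, with medians of -0.13, -0.08 and -0.01. Mylip, a ubiquitin ligase that marks LDL receptors for breakdown, had the largest increase at 48 and 96 h, at a low level of 6.28, 11.1, 15.0 and 8.70 CPM. Npc1, which exports cholesterol from late endosomes, had the largest decrease at both times, with 434, 209, 175 and 185 CPM. Its covered length was 55900, 38953, 29704 and 14677 bp, and its log2 ratios per kb were -0.54, -0.40 and 0.70 at 48, 72 and 96 h.

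Of the 5 esterification and efflux genes, 1, 1 and 0 were higher and 2, 3 and 3 lower, with medians of -0.44, -0.68 and -0.66. Soat1, which esterifies cholesterol in many cell types, had the largest increase at 48 h (15.6 to 24.9 CPM) and was at 14.3 CPM at 96 h. Soat2, its counterpart in hepatocytes and intestine, had the largest decrease at 48 h, with 55.2, 32.4, 26.1 and 34.4 CPM. Abcg5, one chain of the transporter that sends cholesterol into bile, had the largest decrease at 96 h, with 139, 88.5, 66.9 and 63.5 CPM. Its covered length was 26212, 16741, 8745 and 3298 bp, and its log2 ratio per kb was 1.86 at 96 h. Per kb of covered length, 0, 0 and 5 of the 5 genes were at least 1.5-fold higher at 48, 72 and 96 h, and 0, 0 and 0 were lower, against the shares per kb of all genes given above.

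The ketone body list had the lowest medians of the 6 lists, with 0, 1 and 0 of 5 genes higher, 2, 4 and 4 lower, and medians of -0.54, -1.30 and -1.48. Acat1, which joins and splits acetoacetyl-CoA in mitochondria, had the largest decrease at 48 and 96 h, with 93.7, 46.9, 38.2 and 26.8 CPM. Oxct1, the ketone-using enzyme that liver largely lacks, had the highest ratios of the list, with 13.9, 19.1, 22.6 and 18.6 CPM. At 48 and 72 h, the median of this list and the ratio of Aacs had opposite signs in CPM. Per kb of covered length, 0, 0 and 4 of the 5 genes were at least 1.5-fold higher at 48, 72 and 96 h. By the same measure 1, 1 and 0 were lower, against the shares per kb of all genes given above. The covered length of Acat1 went from 19769 bp at 0 h to 9874 bp at 48 h. The log2 ratio of Aacs per kb was 0.05 at 48 h and 0.69 at 72 h.

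**Figure D5:**
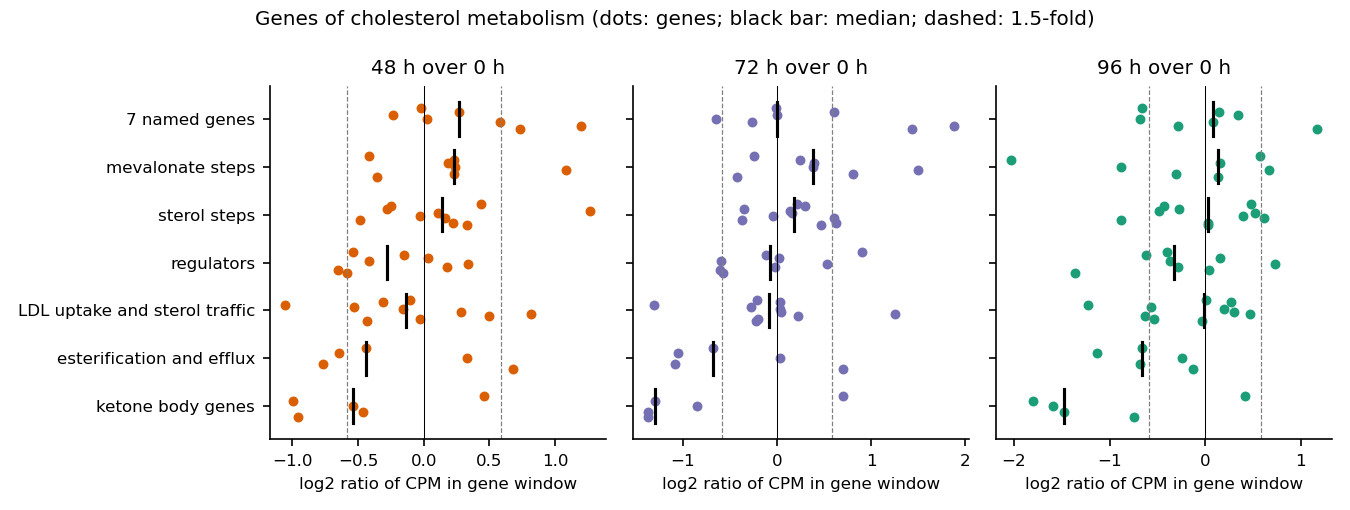
Log2 ratios of CPM in the gene window to the 0 h library at 48, 72 and 96 h for the 7 genes and the 6 lists of other cholesterol genes, with each dot a gene, the black bar the median and dashed lines at 1.5-fold. The medians of the mevalonate list are 0.23, 0.38 and 0.13, and those of the ketone body list are -0.54, -1.30 and -1.48.

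The genes most like the 7 in their median course were searched among genes outside all lists with a mean of at least 20 CPM. The measure was the Euclidean distance between the 3 log2 ratios of a gene and the median ratios of the 7 genes (0.27, 0.00 and 0.08). The 5 nearest were Mtmr12, Mreg, Ino80d, Tbrg1 and Slc30a5, at distances of 0.02 to 0.05. Mtmr12, for example, had 83.6, 100.1, 84.9 and 88.0 CPM. This median course, slightly up at 48 h and near 0 h afterwards, is not the course of Hmgcs1, Aacs, Srebf2 or Fdft1 taken singly.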

How the data were processed

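Nuclei of hepatocytes of mouse liver were profiled by scATAC-Seq, with 1 library for each time after PHx (0, 48, 72 or 96 h). The deposited matrices hold whole cut-site counts per peak and barcode, which the authors made with Cell Ranger ATAC (version 1.1.0 per the file headers) on mm10, with peaks called in each library separately. Both ends of most fragments were counted, as 87.3% to 88.6% of values are even. No fold changes by the authors were in the files.

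Barcodes with at least 1000 counts were kept as nuclei, and no doublet caller was run. Counts were summed over nuclei per peak, assigned to GENCODE vM21 gene windows by an overlap of at least 1 bp, and scaled to counts per 1000000 counts in peaks (CPM). Promoter peaks overlap 1000 bp either side of the annotated 5′ end. Exact 95% Poisson intervals, and conditional binomial intervals for ratios, were computed on counts divided by 2, because a fragment adds a count at each end. Genes with a mean of at least 5 CPM entered the counts past 1.5-fold, with no p-value. Peaks of the 4 libraries that overlap or touch were merged into regions, and lengths within 1.2-fold with 1 peak in both libraries counted as near-equal. Thinning drew 1000 counts per nucleus without replacement. Python 3.11.15, numpy 2.4.6, scipy 1.17.1, pandas 2.3.3 and matplotlib 3.10.9 were used, and the ratio code was tested on simulated data.

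The 7 genes and the lists were chosen with earlier results of these data known. All 7 genes were described in each library. Each list was given by its counts past 1.5-fold and its median, naming the genes with the largest increase and decrease at 48 and 96 h, and the 5 genes nearest to the median course were named. Of the peaks of each gene, those over the 5′ end and the 2 others with the most counts were eligible to be described. The 5′ ends of the 5 genes with an entry lay 28 to 105 bp apart in GENCODE and RefSeq, and printed sequences stop before both. Alternatives were another count minimum, window, promoter, scaling, fold and set of nuclei, plus shared barcodes left out and whole merged regions, both chosen after the data had been seen.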

Additional observations from a re-analysis of the deposited data

How the results depend on the processing

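No paired analysis was possible because each time point had 1 library and no test was made. The ratios of Hmgcs1 to 0 h stayed above 0 under every alternative run, but its 96 h ratio was above that at 72 h per kb (1.16 and 1.38 at 72 and 96 h) and binarised (1.70 and 1.75). Length was the main dependence. Per kb of covered length, 1 gene window was at least 1.5-fold higher at 48 h (in place of 2) and 7 at 96 h (in place of 1), with 0 lower at 72 and 96 h; for promoter peaks 1, 3 and 6 were higher and 0 lower at 72 and 96 h. Of the 45 other genes, 0, 5 and 40 were then higher and 4, 2 and 0 lower. Directions reversed per kb for the windows of Srebf2 (0.15 at 72 h, 1.21 at 96 h), Fdft1 (1.101 at 96 h), Aacs (1.51 at 96 h) and Sqle (-0.15 at 48 h, 0.71 at 72 h), and for the promoter peaks of Aacs (-0.030 at 48 h, 1.64 at 96 h), Srebf2 (0.094 and 1.21 at 72 and 96 h), Fdft1 (0.91 at 72 h), Sqle (0.56 at 72 h) and Idi1 (0.63 at 72 h). With 1 count per peak and nucleus (binarised), 1, 5 and 3 windows were higher and 1 lower at 96 h, 1, 2 and 3 promoters were higher, the window of Fdft1 at 96 h reversed to 0.90, Insig1 at 48 h to 0.54 and the Sqle promoter at 48 and 72 h to 0.03 and 0.12, and the summed log2 ratios were 0.37, 0.91 and 0.72. Over all alternatives, a ratio whose 95% interval spans 0 turned in sign or became 0 in 24 further cases. The cause of these changes was not tested.

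Under both other scalings and with nuclei of low hepatocyte marker share left out, 3 windows in place of 2 were higher at 48 h, with Sqle at 0.65, 0.61 and 0.59. Scaled to regions with a peak in every library, 0 windows were lower at 72 h and the sums were 0.37, 0.67 and 0.16; divided by the median ratio they were 0.33 at 48 h and 0.18 at 96 h. With at least 3000 counts per nucleus they were 0.64 and 0.30 at 72 and 96 h, with nuclei of low hepatocyte marker share left out 0.64 at 72 h, and without shared barcodes 0.26 and 0.58 at 48 and 72 h. With 5000 bp upstream, 0 and 1 windows were lower at 72 and 96 h; with regions called in every library, 1 at 96 h. With whole merged regions, 2 were higher at 96 h, 0 and 1 lower at 72 and 96 h, the sums were 0.26 at 48 h and 0.39 at 96 h, and the windows of Sqle at 72 h and Aacs at 96 h reversed to 0.50 and 0.37. At a fold of 2, 1 window and 0 promoters were higher at 48 h, and 0 windows lower at 72 and 96 h. Promoters of 500 bp gave 1 lower at 72 h, and those around any transcript start 3 and 2 higher at 48 and 72 h, with Sqle reversed to 0.95 at 48 h and Idi1 to 0.22 at 72 h. Divided by the median ratio, the Sqle promoter at 48 h reversed to 0.04. With lengths within 1.5-fold the near-equal medians were -0.30 at 72 h and 0.72 at 96 h. The median share of nuclei with a promoter count was 5.61%, 8.86%, 4.56% and 4.001% at 0, 48, 72 and 96 h; it was 11.8%, 14.6%, 7.82% and 6.48% thinned to 2000 counts and 51.5%, 39.4%, 13.7% and 10.0% without thinning.

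The 96 h library limits the precision most, with the fewest counts and the least covered length. Windows that share a domain with a neighbour hold the counts of both genes.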
